A study of Homo sapiens with 5 samples.

Results

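The 10 genes described here are markers of neuroendocrine and neuronal cells, namely DDC, TUBB3, CHGA, SYP, SCG2, SCG5, UCHL1, CPE, NSG1 and PEG3. All probes that the platform table assigns to one of these symbols were taken, which gave 11 probes among 30107 named probes and 10 of 20044 named genes. NSG1 had 2 probes and the other 9 genes had 1 each. The genes were measured in human LNCaP cells, an androgen-responsive prostate cancer line, on 5 arrays with 1 culture each. LNRII is LNCaP with the TGF-beta type II receptor gene TGFBR2 added by a lentivirus under a CMV promoter, selected with puromycin, and the labels do not say whether it is a single clone. The LNRII cultures received TGFB3, a TGF-beta ligand, at 5 ng/ml or vehicle for 3 days. In LNCaP itself, lentiviruses delivered either a control hairpin, shCtr, or shFOXA1, a hairpin directed at FOXA1; puromycin selection followed, and both arrays carry the label day 10. Another shFOXA1 culture was given LY2157299, which blocks the kinase of the TGF-beta type I receptor (TGFBR1), at a dose of 10 µM over 3 days, and whether the other LNCaP cultures received vehicle is not stated per array. All 5 samples carry the genotype label WT, and the study concerns FOXA1, a transcription factor of luminal prostate cells, as a repressor of the TGF-beta pathway.

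Neuroendocrine cells store peptide hormones and amines in secretory granules and share much of their machinery with neurons. Granule proteins such as chromogranin A, vesicle proteins such as synaptophysin, prohormone-processing enzymes and amine-making enzymes are therefore used together to recognise them. In prostate cancer these markers are used to identify neuroendocrine tumours, which can arise from adenocarcinoma under hormone therapy. Single markers of the set are also made by cells that are not neuroendocrine.

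The granule and vesicle markers CHGA, SYP, SCG2 and SCG5 were not detected, while DDC, TUBB3, PEG3 and CPE were detected on all 5 arrays. DDC was lower with TGFB3 in LNRII (2.57-fold) and with the FOXA1 hairpin in LNCaP (3.75-fold). TUBB3 was 5.43-fold higher with TGFB3 and stood at 1.74-fold, short of 2-fold, with the FOXA1 hairpin. PEG3 was 3.39-fold lower with the FOXA1 hairpin, stood at 1.22-fold with TGFB3, and was 12.4-fold lower in vehicle-treated LNRII than in LNCaP with the control hairpin. Each condition had 1 array, so there is no test and no replicate check of any difference between conditions. A gene is called higher or lower from 2-fold on, and values with a sign give the log2 intensity of the culture named first in a comparison minus that of the other. The available error is how far a pair of probes for 1 gene disagreed about a log2 difference, expressed as an SD per probe and called the probe SD below. It covers the measurement, not the spread between cultures.

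Between 32.3% and 38.1% of the 47306 probes were detected per array, that is, had a detection p-value below 0.01 against the negative controls of the array. The lowest log2 value among detected probes, the detection floor, was 5.03 on the LNRII control array and 4.67 to 4.72 on the others. FOXA1, the target of the hairpin, read 11.82 with shCtr, 11.26 with shFOXA1 and 11.30 with shFOXA1 and LY2157299. It was thus 1.48-fold lower with shFOXA1, at 67.8% of the control signal, which is short of 2-fold. Of the 7 prostate luminal markers with a named probe all 7 were detected on every array, among them KLK3, TMPRSS2 and FOLH1. Detected were also 0 or 1 of 6 fibroblast markers, 0 or 1 of 4 leukocyte markers and 1 or 2 of 3 endothelial markers, VWF being the endothelial marker detected on all arrays. Of the neuroendocrine markers CHGA, SYP, ENO2, NCAM1, INSM1 and CHGB, ENO2 was detected on all arrays. INSM1 was detected on the TGFB3 array alone, at 4.82 near the floor of 4.72, and the other 4 on none. Most defining markers of neuroendocrine cells were thus below detection in these cultures.

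Of the 10 markers, 4 were detected on all 5 arrays (DDC, TUBB3, CPE and PEG3), 2 on some (UCHL1 on 2, NSG1 on 3) and 4 on none (CHGA, SYP, SCG2 and SCG5). The share detected on at least 1 array was 6 of 10, against 58.9% of all named genes. The number of markers detected was 4 on the LNRII control array, 5 with TGFB3, 5 with shCtr, 6 with shFOXA1 and 5 with shFOXA1 and LY2157299. The share of all probes detected was 32.3%, 37.0%, 38.0%, 38.1% and 37.2% in the same order. UCHL1 was detected with shFOXA1 and not with LY2157299 added, at nearly equal intensities before normalization, 97.1 and 96.9.

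CHGA encodes chromogranin A, a core protein of secretory granules and the serum marker of neuroendocrine tumours. Its mean bead intensity, before normalization, was 88.2 on the LNRII control array, 96.5 with TGFB3, 91.3 with shCtr, 92.2 with shFOXA1 and 92.5 with LY2157299 added. The lowest detected intensities on these arrays lay between 96.7 and 102.1, and the detection p-value of CHGA ranged from 0.052 with TGFB3 to 0.29. SYP, synaptophysin, a membrane protein of small synaptic vesicles, read 84.4 to 91.3, with a smallest detection p-value of 0.18. SCG5 encodes a chaperone of the prohormone convertase PCSK2 and read 84.1 to 95, with a smallest detection p-value of 0.10.

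SCG2, secretogranin II, a granule protein cut into peptides such as secretoneurin, read 83.7 on the LNRII control array, 94.7 with TGFB3, 97.1 with shCtr, 89.1 with shFOXA1 and 88.0 with LY2157299 added. With shCtr its detection p-value was 0.018, which missed the threshold of 0.01 and would pass one of 0.05. The second NSG1 probe was also detected on no array and read 81.5 to 94.5. These probes were not distinguishable from background at the threshold used, so lower levels were not measurable, and no fold is given for them.

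**Figure D1:**
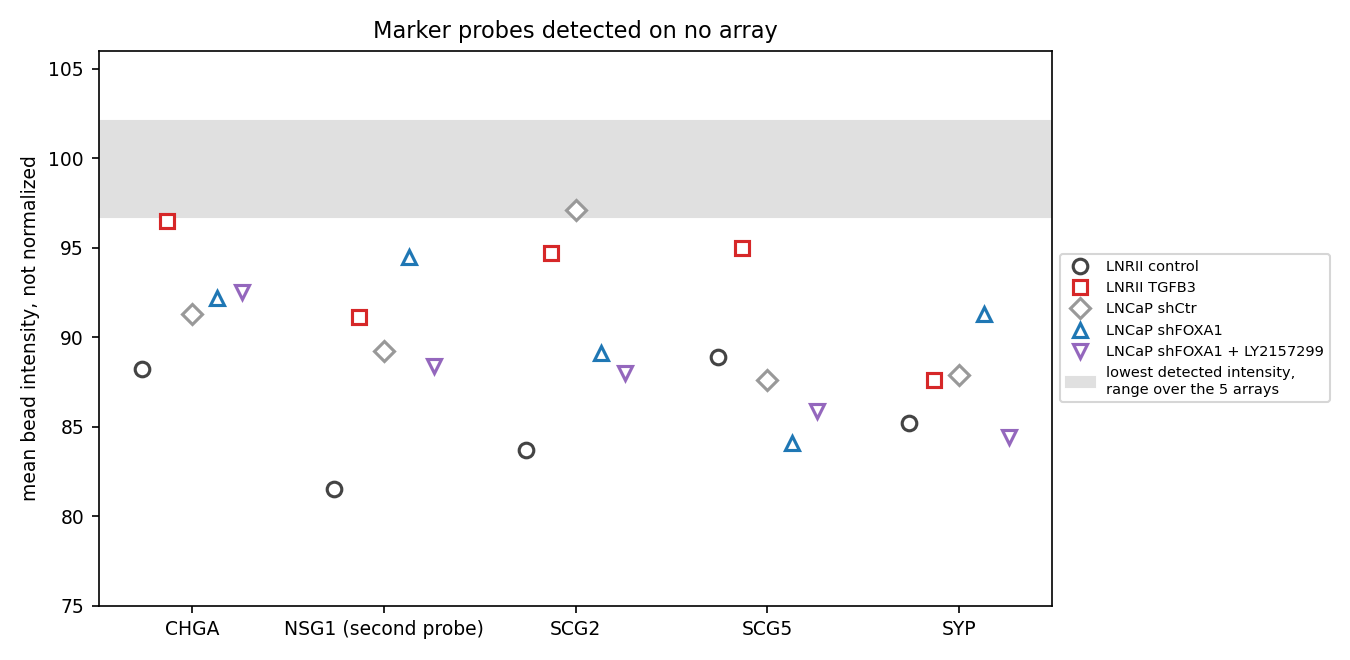
Mean bead intensity before normalization (y axis, not starting at 0) of the 5 marker probes detected on no array, with 1 symbol per array. The grey band spans the lowest detected intensities of the 5 arrays, 96.7 to 102.1; every symbol lies below it except SCG2 with shCtr at 97.1, which is below the 98.7 of its own array.

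CPE, carboxypeptidase E, trims basic residues from peptide hormones during granule maturation and was the granule-associated marker that was clearly detected. Its log2 level was 8.97 on the LNRII control array, 8.83 with TGFB3, 8.63 with shCtr, 8.63 with shFOXA1 and 8.91 with LY2157299 added. The whole range was 0.34, and no step between neighbouring arrays in the order of levels exceeded 2 probe SD. The differences were -0.14 with TGFB3, 0.00 with shFOXA1 and 0.28 with LY2157299 against shFOXA1, where the probe SD was 0.22, 0.17 and 0.15. Each of these lay within 2 probe SD, and a single array per condition cannot show that CPE did not change.

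DDC, the aromatic amino acid decarboxylase, makes dopamine and serotonin from their amino acid precursors. Its log2 level was 9.60 on the LNRII control array, 8.24 with TGFB3, 9.29 with shCtr, 7.38 with shFOXA1 and 7.16 with LY2157299 added. Both control arrays stood above the 3 others. The controls differed from each other by 0.32 (probe SD 0.27), and the 2 shFOXA1 arrays by 0.22 (probe SD 0.15), so neither of these pairs was separated by more than 2 probe SD, while the other neighbours in the order were. With TGFB3 the difference was -1.36 against a probe SD of 0.22, which left 38.9% of the control signal. With shFOXA1 it was -1.91 against a probe SD of 0.17, leaving 26.7%. DDC ranked 20 among the decreases of 9240 genes measured on both LNRII arrays, and 9 among those of 10127 genes in the hairpin comparison. These comparisons share no array. Adding LY2157299 did not bring DDC nearer to the control hairpin, from which it then differed by -2.13 (22.9% of the signal).

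DDC has 2 windows in the RefSeq promoter table, which holds 250 bases before and 50 bases after a transcript start, and TUBB3 also has 2. They are shown because DDC was lower with the ligand and with the hairpin, while TUBB3 was higher with the ligand. With the hairpin TUBB3 lay above the control but short of 2-fold. Another reason is that FOXA1 and the SMAD proteins, which carry the TGF-beta signal, bind DNA. Capitals mark matches to the forkhead letters TGTTTAC or TATTTAC and to the SMAD letters CAGAC, searched on both strands. No matches overlap in the windows shown.
DDC upstream window, chr7:50565356-50565655, minus strand, GRCh38.p14: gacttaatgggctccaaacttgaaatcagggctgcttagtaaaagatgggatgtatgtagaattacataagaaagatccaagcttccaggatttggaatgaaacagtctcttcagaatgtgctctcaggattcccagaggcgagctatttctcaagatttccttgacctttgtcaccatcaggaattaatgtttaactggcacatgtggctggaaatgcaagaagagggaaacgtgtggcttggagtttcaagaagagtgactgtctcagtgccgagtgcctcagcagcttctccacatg
DDC downstream window, chr7:50561022-50561321, minus strand, GRCh38.p14: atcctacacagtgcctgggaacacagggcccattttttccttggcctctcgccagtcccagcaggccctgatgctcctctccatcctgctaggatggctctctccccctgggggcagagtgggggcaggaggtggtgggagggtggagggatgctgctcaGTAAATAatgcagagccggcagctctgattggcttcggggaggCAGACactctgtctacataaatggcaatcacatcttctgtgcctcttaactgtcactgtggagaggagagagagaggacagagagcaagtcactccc
TUBB3 upstream window, chr16:89921675-89921974, plus strand, GRCh38.p14: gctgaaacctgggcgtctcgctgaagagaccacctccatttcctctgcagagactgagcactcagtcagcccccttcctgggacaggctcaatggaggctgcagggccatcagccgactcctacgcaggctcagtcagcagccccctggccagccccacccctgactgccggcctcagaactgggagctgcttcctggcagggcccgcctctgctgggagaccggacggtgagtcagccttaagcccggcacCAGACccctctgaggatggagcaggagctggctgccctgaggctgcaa
TUBB3 downstream window, chr16:89923092-89923391, plus strand, GRCh38.p14: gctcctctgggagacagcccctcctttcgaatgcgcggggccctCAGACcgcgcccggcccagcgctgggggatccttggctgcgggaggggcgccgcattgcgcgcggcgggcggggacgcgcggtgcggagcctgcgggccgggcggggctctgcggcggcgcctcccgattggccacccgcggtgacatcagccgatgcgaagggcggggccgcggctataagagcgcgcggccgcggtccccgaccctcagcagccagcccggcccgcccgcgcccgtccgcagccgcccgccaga
The downstream DDC window held the single forkhead match among the 11 windows of the 8 markers with an entry, in the orientation opposite to the gene. SMAD letters were found in 5 of the 11 windows, those of DDC (downstream), TUBB3 (both), SCG5 and UCHL1. Of all 35116 windows of this length, 5.97% held a forkhead match and 45.3% a SMAD match. A match describes the letters only, and binding was not measured here. SCG2 and PEG3 have no entry in the table used.

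TUBB3, the class III beta-tubulin of neuronal microtubules, moved in the direction opposite to DDC. Its log2 level was 7.13 on the LNRII control array, 9.57 with TGFB3, 7.48 with shCtr, 8.29 with shFOXA1 and 8.95 with LY2157299 added. The 2 controls were the lowest arrays and differed by 0.36 (probe SD 0.27), and each further step up the order exceeded 2 probe SD. The increase with TGFB3 was 2.44 against a probe SD of 0.22 and ranked 11 among the increases of 9240 genes. With shFOXA1 TUBB3 stood at 0.80, which was 4.72 probe SD but not 2-fold. LY2157299 against shFOXA1 gave a further 0.66 (1.58-fold), which ranked 25 among the increases of 10132 genes. Cells with the hairpin and LY2157299 were thereby 2.76-fold above the control hairpin. Other tubulins have related sequences, and whether the TUBB3 probe also reads them was not tested.

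PEG3 encodes a zinc finger protein that is imprinted, expressed from the paternal copy, and abundant in brain. Its log2 level was 6.52 on the LNRII control array, 6.81 with TGFB3, 10.15 with shCtr, 8.39 with shFOXA1 and 7.45 with LY2157299 added. The LNCaP array with the control hairpin stood above all others, both LNRII arrays were at the bottom, and they differed from each other by 0.29 (probe SD 0.22). With shFOXA1 the difference was -1.76, which left 29.5% of the control signal and ranked 11 among the decreases of 10127 genes. LY2157299 was accompanied by a further -0.93 (1.91-fold lower, probe SD 0.15), just short of 2-fold, at rank 30 among 10132 genes. Against the control hairpin the cells with hairpin and LY2157299 stood at -2.70, or 15.4% of the signal.

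UCHL1, a ubiquitin hydrolase abundant in neurons, and NSG1, an endosomal protein of neurons involved in receptor recycling, were read close to the detection floor. UCHL1 was detected with shCtr at 5.64 and with shFOXA1 at 4.70, and was not detected at 4.45 in LNRII control, 4.56 with TGFB3 or 4.69 with LY2157299 added. The difference of -0.94 with shFOXA1 was short of 2-fold, and it was -0.32 without background correction. For genes whose probes read below log2 6 the probe SD of this pair of arrays was 0.21. With the hairpin and LY2157299 UCHL1 was at least 1.91-fold lower than with shCtr (-0.93), a bound that shrank to -0.31 without background correction.

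NSG1 was read by its detected probe. It was not detected on either control array, at 4.29 in LNRII and 4.28 with shCtr, and was detected with TGFB3 at 4.84, with shFOXA1 at 5.16 and with LY2157299 added at 5.24. It was at least 1.40-fold higher with shFOXA1 and at least 1.47-fold higher with shFOXA1 and LY2157299 than with shCtr. Without background correction these bounds, 0.48 and 0.56 on the log2 scale, were 0.14 and 0.17. No fold can be given for TGFB3, because the level lay below the floor of the LNRII control array. The second NSG1 probe was detected on no array and gave no value to set beside these.

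**Figure D2:**
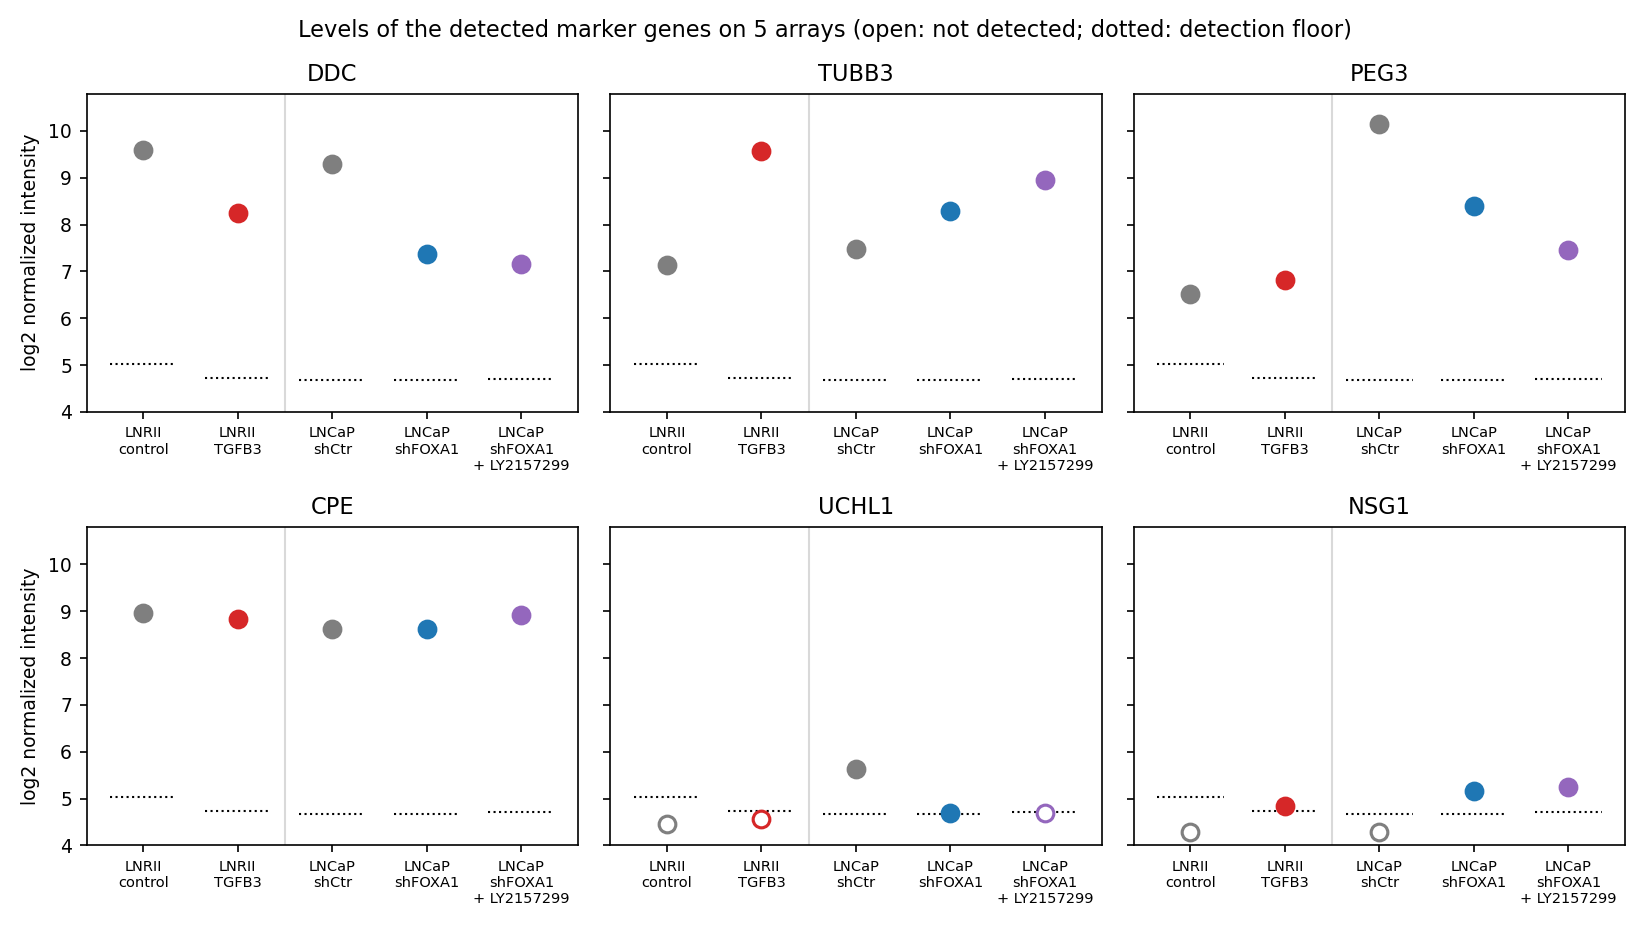
Log2 normalized intensity (y axis) of the 6 markers detected on at least 1 array, with 1 point per array; open points were not detected and dotted lines give the detection floor of each array. DDC is highest on the 2 control arrays, TUBB3 lowest on them, PEG3 highest with shCtr at 10.15, and CPE stays between 8.63 and 8.97.

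The comparison of TGFB3 with vehicle in LNRII asks how these cells respond to the ligand. Of 5 markers measured, 1 was higher (TUBB3) and 1 lower (DDC), where 1.87% of all 10711 genes measured were higher and 1.16% lower. PEG3 stood at 0.29, 1.32 times the probe SD. Of all 10711 genes, 4814 lay below 0. All 12 proliferation markers, which mark cycling cells, lay below 0 in the same comparison and 5 of them were lower by 2-fold or more (CDK1, BUB1, AURKA, AURKB and RRM2). Their summed normalized intensity was 9235 in LNRII control and 5132 with TGFB3, and their part in the result was not tested. The luminal markers, each on its brightest probe, lay above 0 in 7 of 7 cases, as did 5114 of all 10711 genes. TMPRSS2 stood at 1.01 and KLK3 at 0.83, and the summed intensity of the luminal markers was 3519 and 5936. A second KRT18 probe, detected on all arrays, went the other way, from 6.76 in LNRII control to 5.91 with TGFB3. VWF, an endothelial marker that was detected on all arrays, read 7.09 in LNRII control and 8.53 with TGFB3 (a difference of 1.43). The summed intensity of VWF and CDH5 was 174 and 387, with CDH5 detected on the LNRII control array alone. PECAM1 was detected on no array and is not in the sum. The part of the endothelial markers in the result was not tested.

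The FOXA1 hairpin was set against the control hairpin to ask what differs when this factor is targeted. Among 6 markers measured 0 were higher and 2 lower (DDC and PEG3), while 1.11% of all 11132 genes were higher and 0.377% lower. Of all 11132 genes, 5822 lay below 0. The 12 proliferation markers again all lay below 0, with a median of -0.41, and none was 2-fold lower. Their summed intensity was 6474 with shCtr and 4654 with shFOXA1, and their part was not tested.

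LY2157299 was set against shFOXA1 alone to ask what differs when the receptor kinase is blocked in these cells. No control hairpin culture with LY2157299 was measured. Effects of LY2157299 itself and effects on the hairpin differences therefore cannot be told apart. No marker of 6 measured differed by 2-fold, and 0.0545% of all 11002 genes were higher and 0.209% lower. PEG3 (-0.93) and TUBB3 (0.66) were the markers furthest from 0, and both lay on the same side of 0 as with the hairpin. All 12 proliferation markers lay above 0, with a median of 0.49 and a summed intensity of 6642, and their part was not tested. Of all 11002 genes, 5579 lay above 0. Set against the control hairpin, cells with hairpin and inhibitor had 1 marker higher (TUBB3) and 2 lower (DDC and PEG3) of 6 measured, against 0.917% and 0.517% of all 11019 genes. The comparisons with and without LY2157299 share the shCtr or the shFOXA1 array and are not independent.

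Vehicle-treated LNRII, the culture named first, and LNCaP with the control hairpin differ in the added receptor, the hairpin virus and the labelled day, which cannot be told apart. Here 0 of 5 markers were higher and 1, PEG3, was lower, against 2.18% and 3.07% of 10847 genes. The PEG3 difference of -3.63 (probe SD 0.27) ranked 2 among the decreases of 9206 genes measured on both arrays, and it was -2.88 without background correction. DDC stood at 0.32, TUBB3 at -0.36 and CPE at 0.34 in the same comparison, each within 2 probe SD. UCHL1 was at least 1.53-fold lower in LNRII (-0.61, or 2.26 probe SD), and at -0.22 without background correction.

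**Figure D3:**
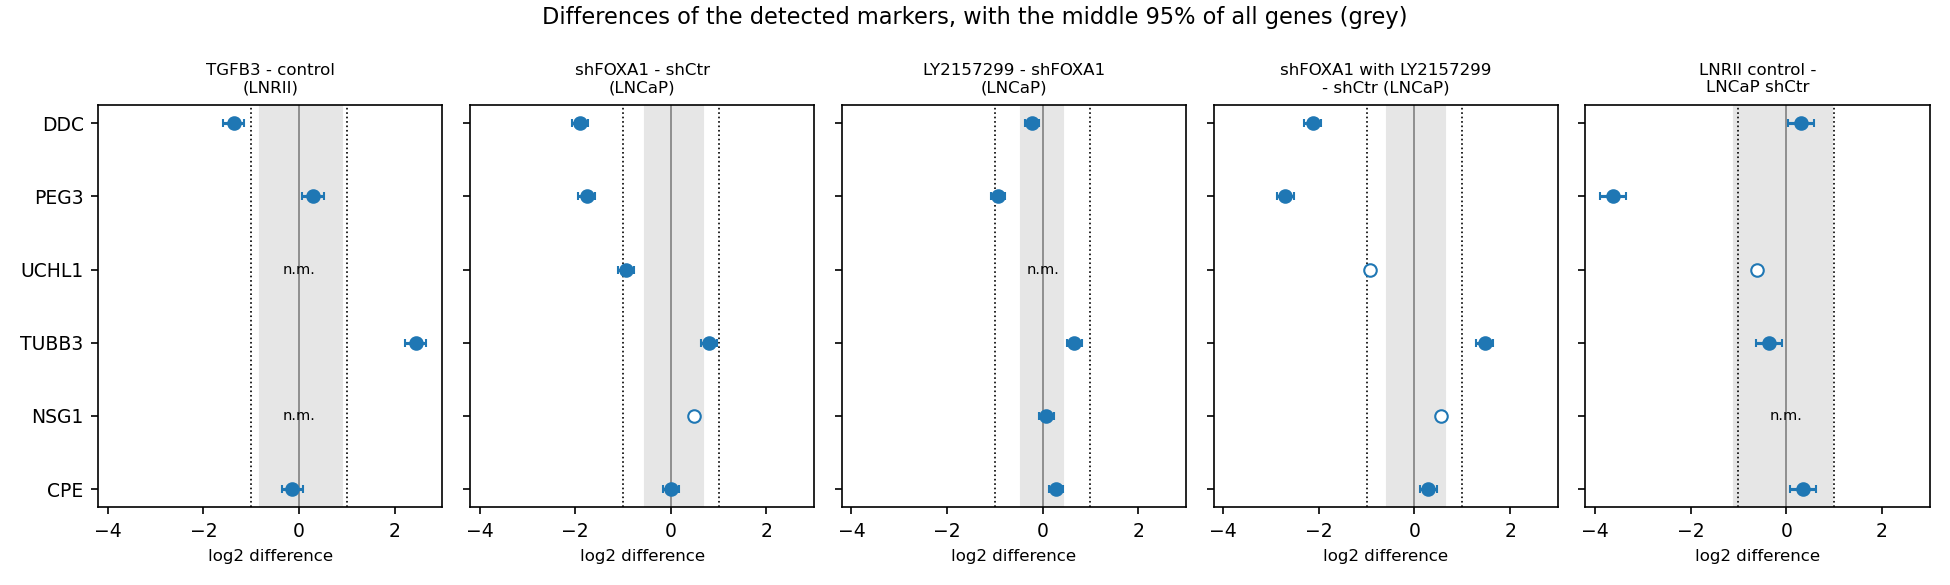
Log2 difference (x axis) of the 6 detected markers (y axis) in each of 5 comparisons, with bars of 1 probe SD, open points for lower bounds and n.m. where no difference could be measured. The grey band holds the middle 95% of all genes and dotted lines mark 2-fold. With TGFB3, DDC lies left of the band and TUBB3 right of it, at 2.44. DDC, PEG3 and UCHL1 lie left and TUBB3 right with shFOXA1, and also with shFOXA1 and LY2157299 against shCtr. For LY2157299 against shFOXA1, PEG3 lies left and TUBB3 right. Between the lines PEG3 alone lies outside, on the left.

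Related genes were followed in lists that did not include the 10 markers. Of all genes, 1.87% were higher and 1.16% lower with TGFB3, 1.11% and 0.377% with shFOXA1, and 0.0545% and 0.209% with LY2157299 against shFOXA1. Lists this short could therefore hold no gene 2-fold apart without standing out from all genes. Among other granule proteins and prohormone processing genes, 7 of 15 listed were measured in the comparisons with TGFB3, with shFOXA1 and with LY2157299, and none was 2-fold apart in any of them. With TGFB3 their median was 0.18, and PAM, which amidates peptide hormones, stood at 0.73. With shFOXA1 the median was 0.06, where that of all genes was -0.01. VGF, a granule peptide precursor, read 5.24, 5.57, 6.66, 7.57 and 7.43 in the order LNRII control, TGFB3, shCtr, shFOXA1 and shFOXA1 with LY2157299, and stood at 0.91 with shFOXA1. RAB27B, a small GTPase of granule docking, stood at -0.44 with shFOXA1 and 0.76 with LY2157299 added.

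Transcription factors of neuroendocrine differentiation were largely undetected, with 4 of 15 measured in the TGFB3 comparison and 2 of 15 in each of the LNCaP comparisons. INSM1, a zinc finger factor of neuroendocrine cells, was detected with TGFB3 at 4.82 and on no other array. That level was near the floor of 4.72 of its array and below the floor of 5.03 of the LNRII control array. No fold can therefore be given for INSM1 with TGFB3. On its brightest probe ONECUT2 stood at -0.14 with TGFB3 and 0.16 with shFOXA1. The other ONECUT2 probes, detected on all arrays, each fell further with TGFB3. The brightest of them read 6.91 in LNRII control and 6.19 with TGFB3, and another read 5.66 and 5.23. LHX2 stood at 0.53 with TGFB3 and -0.24 with shFOXA1. REST, which represses neuronal genes outside the nervous system, read between 4.89 and 5.25 over the 5 arrays. Of 8 measured genes for REST and its corepressors none was 2-fold apart with TGFB3, shFOXA1 or LY2157299, and the medians were 0.00, -0.05 and 0.05. CHGB, NCAM1 and TH, the last of which makes the precursor that DDC converts to dopamine, were detected on no array.

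The neuronal cytoskeleton list held the nearest relatives of TUBB3. With TGFB3, 4 of 9 measured genes were higher and 0 lower, where 1.87% of all genes were higher and 1.16% lower, and the list median was 0.50 against 0.00 for all genes. They were the beta-tubulins TUBB4A (1.23) and TUBB2A (1.18), MAP1B, a microtubule-associated protein (1.13), and the stathmin STMN3 (1.03). STMN1, a stathmin of dividing cells, stood at -0.92 and the microtubule protein MAPT at -0.64, each on its brightest probe. A dimmer MAPT probe was detected with TGFB3 alone, at 5.11. A second STMN1 probe detected on all arrays fell less, from 7.30 in LNRII control to 6.93 with TGFB3. With shFOXA1 none of 10 measured was 2-fold apart and the median was 0.10. TUBB4A read 5.94 with shCtr, 4.95 with shFOXA1 and 5.73 with LY2157299 added, and so stood at -0.99 with the hairpin, opposite in sign to TUBB3. MAP2, a dendritic microtubule protein, stood at 0.57 with shFOXA1. With LY2157299 the median was 0.28 and 8 of 11 measured lay above 0, as did 5579 of all 11002 genes. DPYSL2 stood at 0.79, TUBB4A at 0.78 and TUBB2A at 0.63.

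Synaptic and vesicle release genes showed no member 2-fold apart among 10 or 11 measured in the comparisons of TGFB3, shFOXA1 and LY2157299. SYT11 (0.87), RAB3B (0.86) and STX1A (0.68) were furthest from 0 with TGFB3, and CPLX1 (0.57) and SYT4 (0.56) with shFOXA1. Of the neural adhesion genes and ENO2 only 4 of 12 were measured. ENO2, the neuronal enolase, read 5.93, 6.01, 5.48, 5.12 and 5.87 in the array order used above for VGF, and stood at -0.36 with shFOXA1 and 0.75 with LY2157299. NLGN1, a synaptic adhesion protein, stood at -0.80 with TGFB3 and -0.84 with shFOXA1. DLL3, a Notch ligand and surface marker of neuroendocrine tumours, read between 7.85 and 8.35 over the arrays on its brighter probe.

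Other genes of amine synthesis, storage and breakdown were set beside DDC. Of 7 measured with TGFB3, 1 was higher and 0 lower (1.87% and 1.16% of all genes), with a median of -0.07, and of 8 measured with shFOXA1 none was 2-fold apart. The gene that was higher with TGFB3 was AADAT, an aminotransferase of lysine and kynurenine breakdown, at 1.52. MAOA, the monoamine oxidase that degrades serotonin, stood at 0.63 with shFOXA1. The pterin enzymes GCH1, PTS, SPR, QDPR and PCBD1, which make or recycle the cofactor for amine hydroxylation, showed no 2-fold difference with TGFB3, shFOXA1 or LY2157299. AADAT was lower with shFOXA1 and LY2157299 than with shCtr (-1.14). Among neuropeptides 3 to 5 of 16 were measured, and in that same comparison ADM, adrenomedullin, was lower (-1.42) and GAL, galanin, stood at -0.73.

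Other imprinted genes were set beside PEG3. Of 8 measured with TGFB3, 9 with shFOXA1 and 8 with LY2157299 none was 2-fold apart, and the medians were 0.00, 0.10 and -0.03. Few of all genes were 2-fold apart either: 1.87% higher and 1.16% lower with TGFB3, 1.11% and 0.377% with shFOXA1, and 0.0545% and 0.209% with LY2157299. With TGFB3 GRB10 stood at -0.67 on its brightest probe, and another read 7.49 in LNRII control and 6.93 with TGFB3. In shFOXA1 with LY2157299 against shCtr, PHLDA2 stood at 0.59, GRB10 at -0.30 and NDN at 0.21, where PEG3 stood at -2.70. The relatives of UCHL1 that were measured, UCHL3 and UCHL5, lay between -0.25 and 0.10 in the comparisons of TGFB3, shFOXA1 and LY2157299.

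**Figure D4:**
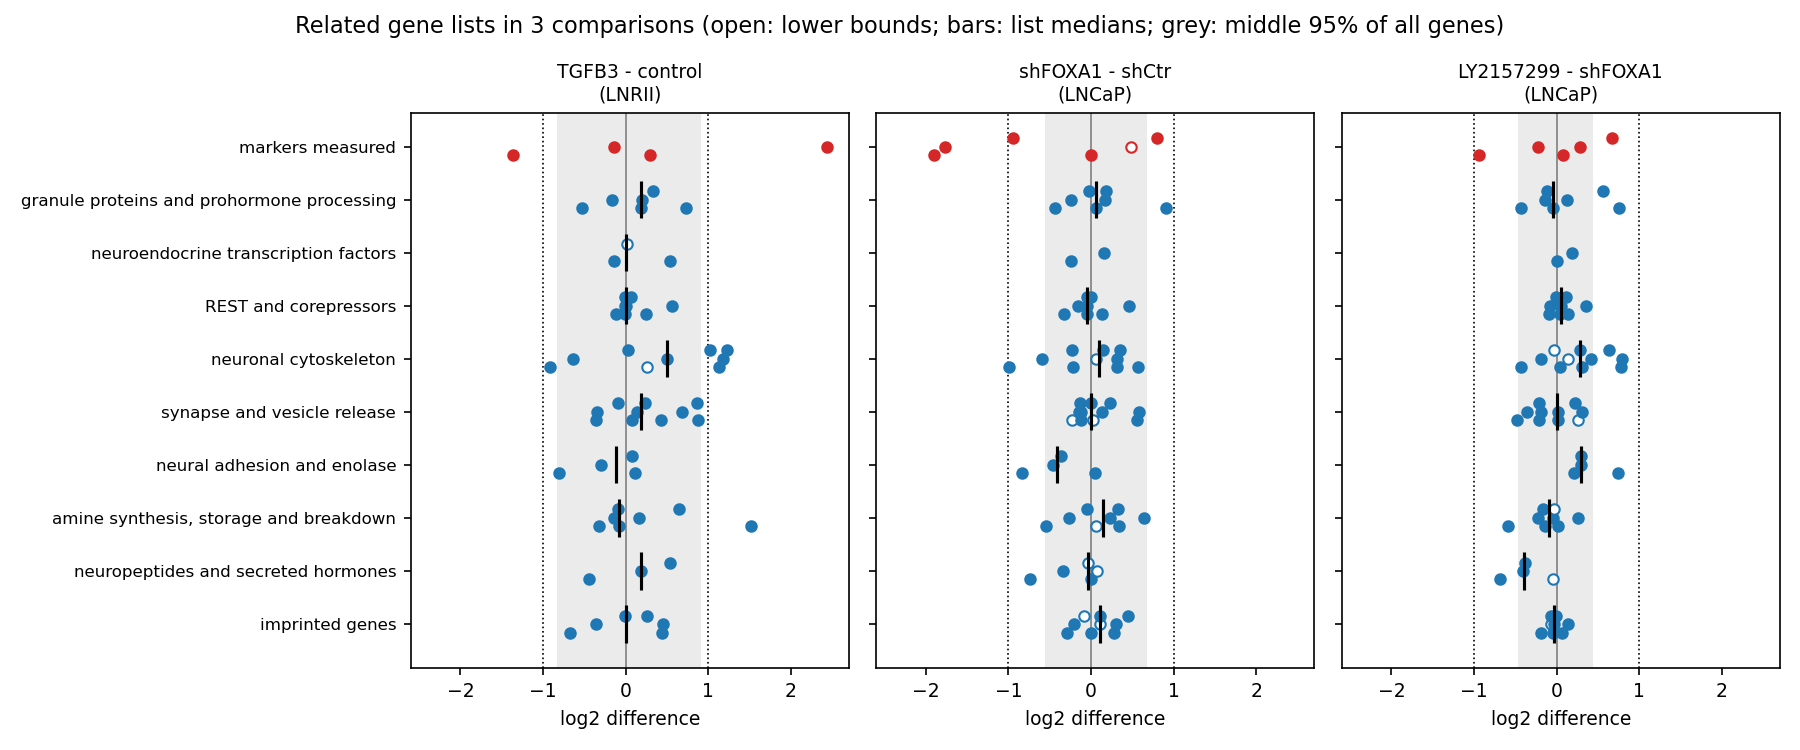
Log2 differences (x axis) of the markers measured (red) and of the genes of 9 related lists (blue) with TGFB3, with shFOXA1 and with LY2157299 against shFOXA1, open where only a lower bound could be given. Black bars are list medians, the grey band holds the middle 95% of all genes and dotted lines mark 2-fold; the neuronal cytoskeleton has 4 genes beyond 2-fold with TGFB3, and AADAT is the other gene beyond it outside the markers.

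The genes with profiles most like those of PEG3, DDC and TUBB3 were looked up among 9024 other genes detected on all 5 arrays. Likeness was the root mean square difference of log2 values after each gene was centred on its mean over the 5 arrays. Nearest to DDC were ANKRD37 (0.36), NUP93 (0.37) and PRUNE2 (0.41). The profile of ANKRD37 read 8.67 in LNRII control, 7.42 with TGFB3, 8.30 with shCtr, 7.28 with shFOXA1 and 6.89 with LY2157299 added. TUBB3 was most closely matched by SUSD2 (0.27), BICD1 (0.30) and C5orf46 (0.35), and SUSD2 read 5.41, 7.11, 5.74, 6.43 and 6.96 in the same order. For PEG3 they were TRIM51 (0.50), ACP3 (0.51) and TAOK3 (0.55). With 5 arrays such likeness is a description of these cultures.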

How the data were processed

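The members were fixed by symbol, and they, the related lists and the comparisons were chosen with earlier results of these data known. Biotin-labelled total RNA of 5 cultures was hybridised to 5 Illumina bead arrays, and GenomeStudio was used, per the submitters' processing notes. The deposited table holds the mean bead intensity per probe, not normalized, and, for each array, a detection p-value per probe, per the file headers. A second deposited table holds processed intensity values, whose preparation the labels do not describe; its column medians were 4.7 for LNRII and 4.5 for LNCaP, and its values were linear, partly negative and equally distributed within each line, while its background method is unknown. It served only as an alternative.

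From the deposited intensity values, limma 3.58.1 in R 4.3.3 (neqc) made log2 values: normexp correction with the control level inferred from detection p-values, offset 16, and quantile normalization over 5 arrays. A gene was read by its brightest probe on average among those detected on at least 1 array, and entered a comparison if detected on either array. An undetected side was raised to the floor of its array, unless it read higher, and the difference is then a bound, set to 0 in list medians where the bound gave no difference. With 1 array per group there was no test. The number of arrays limits the precision. The probe SD came from genes with 2 probes detected on both arrays (1827 in LNRII, 2099 for shFOXA1 and shCtr). The normalization was tested on simulated data. All 10 markers matched a GRCh38.p14 gene table by Entrez identifier; promoter sequences are from RefSeq. The genes named are the markers, fixed genes such as REST, ENO2 and FOXA1, the 2-fold or up to 3 most different genes of each list, and the 3 nearest profiles of the 3 markers with the widest range. In the sentences on lists only a selection of these is given. There were 8 alternatives. Tables were handled in Python 3.11.15 with numpy 2.4.6 and pandas 2.3.3, and plots drawn with matplotlib 3.10.9. Some listed genes are not reported here.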

Additional observations from a re-analysis of the deposited data

How the results depend on the processing

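The direction of each marker called 2-fold apart was the same under every alternative run, and the counts of markers higher and lower stayed within 1.5 times of those reported under no background correction, an offset of 50, normalization within each line, median scaling, the authors' processed table and the mean of detected probes. At 1.5-fold 1 marker was higher (TUBB3, against 0) and 3 lower (UCHL1 added, against 2) with shFOXA1, 3 were lower with shFOXA1 and LY2157299 against shCtr (UCHL1 added, against 2), 1 higher and 1 lower with LY2157299 against shFOXA1 (TUBB3 and PEG3, against 0 and 0), and 2 lower in LNRII control against LNCaP shCtr (against 1). With a detection p below 0.05 that last count was also 2, as UCHL1 reached at least 2-fold (-1.04). Of the recomputed marker differences 160 moved by less than the probe SD and 26 by more, the latter towards 0 without background correction or with the offset of 50, except for NSG1 and UCHL1 at the detection p of 0.05. DDC ranged from -1.36 to -1.18 with TGFB3 and from -1.93 to -1.55 with shFOXA1, TUBB3 with TGFB3 from 1.97 to 2.44, and PEG3 with shFOXA1 from -1.77 to -1.57. Among list medians 364 moved by less than the probe SD and 6 by more. Normalization within each line and the authors' table were not run between the lines. Over all genes, no background correction gave fewer calls, with 86 higher and 31 lower with TGFB3 (200 and 124 as reported), 49 and 15 with shFOXA1 (124 and 42), 1 and 5 with LY2157299 against shFOXA1 (6 and 23), 37 and 20 for shFOXA1 with LY2157299 against shCtr (101 and 57), and 59 and 127 between the lines (236 and 333). The offset of 50 gave 120 and 53, 68 and 22, 2 and 12, 53 and 27, and 112 and 198 in the same order. At 1.5-fold the counts were 707 and 711, 368 and 205, 70 and 136, 335 and 258, and 1035 and 1101. No paired analysis was possible because each group held 1 array. UCHL1 and NSG1 lie at the detection floor, so their values are limited by the signal over background.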

Other observations

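The control cultures of the lines differed in some neuronal genes beside PEG3. In LNRII control against LNCaP shCtr, where 3.07% of all genes were lower and 2.18% higher, 2 of 7 measured granule genes were lower, CADPS2, a protein of dense-core vesicle release (-2.23), and VGF (-1.42). The stathmin STMN3 (-1.58) and ADM (-1.45) were also lower. Higher in LNRII were the adhesion protein NLGN1 (1.89), the imprinted adaptor GRB10 (1.44), the microtubule protein MAPT (1.05) and GAL (1.04). On its brightest probe no gene was 2-fold apart among 8 measured genes for REST and its corepressors, 11 synaptic genes, 7 amine genes and 2 transcription factors of neuroendocrine differentiation. ONECUT2, a factor of the last list, stood at 0.80 on that probe, and its other probes were also higher in LNRII control. The brightest of these others read 6.91 in LNRII control and 5.91 in LNCaP shCtr. The dimmest, at 4.96 in LNCaP shCtr, was more than 2-fold higher in LNRII control. The second well-detected GRB10 probe read 7.49 in LNRII control and 5.80 in LNCaP shCtr. Of 7 luminal markers all lay below 0 in LNRII control on their brightest probes, as did 5039 of all 10847 genes. Among these markers 3 were lower, KLK3 (-1.57), KRT8 (-1.19) and KLK2 (-1.03). The second KRT18 probe went the other way, at 6.76 in LNRII control and 6.41 in LNCaP shCtr. Of 12 proliferation markers 10 lay above 0, as did 4987 of all 10847 genes, with BUB1 at 1.26. The added receptor, the hairpin virus, the labelled day and the single cultures cannot be told apart as sources of these differences.

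AADAT, the amine list member furthest from 0 with TGFB3, was read by 3 probes. They read 8.99, 6.62 and 5.00 without TGFB3, the last not detected, and 10.50, 7.54 and 5.63 with it. In LNCaP the brighter probes read 9.42 and 7.04 with shCtr, 8.87 and 6.47 with shFOXA1, and 8.29 and 5.90 with LY2157299 added.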
